A study of Caenorhabditis elegans with 6 samples.

Results

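The mRNAs of alh-7, lam-2, lem-2, pop-1, unc-64 and Y75B8A.8, which are known substrates of RNA editing in Caenorhabditis elegans, were examined for contact with the RNA-binding protein ADR-1. They were taken by name from a deposited table of uniquely annotated significant read clusters, which are stretches of the genome where reads pile up. The 6 genes accounted for 15 of its 636 clusters and for 6 of its 363 gene identifiers. All 15 lay in a 3' UTR, as did 431 of the 636. A wider list of 736 reproducible clusters held the same 15 clusters for these genes and no other. Every cluster had entered the table because the authors' caller found it enriched on the same libraries, so a higher CLIP than input level was a condition of entry. Editing itself was not measured.

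ADARs are enzymes that convert adenosine to inosine within double-stranded RNA. In the worm the active editing enzyme is ADR-2, and ADR-1, which resembles it but cannot deaminate, binds RNA and alters how often ADR-2 edits particular sites. Edited worm mRNAs mostly carry their edited bases in 3' UTRs or introns, where repeats in opposite orientation can pair into long hairpins.

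RNA bound to ADR-1 was recovered from whole mixed-stage animals of 1 strain, which carries a 3xFLAG tag on ADR-1 and is described as otherwise wild-type in the table captions. Animals were kept at 20 °C, crosslinked with ultraviolet light at 3 J/cm2 and lysed, and 5 mg of lysate was digested with 150 units of RNase I. The study comprised 3 input libraries, each from 2% of a digested lysate, and 3 CLIP libraries from anti-FLAG beads incubated with the remainder, paired by replicate number. Both groups carry the tag, and no library from untagged animals or from a mock pulldown was analysed here, so RNA in contact with ADR-1 and RNA retained by the beads cannot be told apart. The captions call the replicates biological, but no source used here says that they were separate cultures, and the p-values cover the spread among the 6 libraries, which may be technical.

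The library totals that underlie the deposited statistics were 5776707, 5773602 and 5775984 reads for CLIP replicates 1, 2 and 3, and 4158973, 2475493 and 4248714 reads for the inputs. The near-identical CLIP totals bear on every scaled ratio, because it is not known whether each is the depth of its own library. The 15 clusters held 4663, 1001 and 3128 CLIP reads, or 3.60%, 3.58% and 3.93% of the reads in all 636 clusters. They held 55, 37 and 54 input reads, or 1.02%, 1.98% and 0.970% of the input reads in clusters. RNA came from whole animals, in which expression in fewer cells and less RNA per cell cannot be told apart.

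Positions were set against RefSeq gene bounds on WBcel235, in which all 6 genes were found. The clusters are numbered 5' to 3' along each mRNA, and coordinates are printed as deposited. On chromosome II, plus strand, lem-2 (WBGene00002275) had cluster 1 at 14065901 to 14065980, cluster 2 at 14066023 to 14066212 and cluster 3 at 14066328 to 14066528. Its last cluster ended 118 bases before the annotated end of the gene, and its clusters covered 74.6% of the 627 bases that they spanned. On chromosome I, minus strand, pop-1 (WBGene00004077) had cluster 1 at 2823347 to 2823389, cluster 2 at 2823214 to 2823268, cluster 3 at 2823038 to 2823113, cluster 4 at 2822959 to 2823031 and cluster 5 at 2822891 to 2822955. The 5 clusters spanned 498 bases, and the last ended 660 bases before the annotated end, so the distal stretch of that 3' end held no listed cluster.

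On chromosome X, minus strand, lam-2 (WBGene00016913) had cluster 1 at 7144742 to 7144838 and cluster 2 at 7144271 to 7144352. These were the most widely separated neighbours among the 6 genes, with 390 bases between them. On chromosome III, plus strand, unc-64 (WBGene00006798) had clusters at 13283014 to 13283101 and at 13283108 to 13283214, with 7 bases between them. Y75B8A.8 (WBGene00013545), on the same chromosome and strand, had clusters at 12170946 to 12171023 and at 12171043 to 12171138, with 20 bases between them. The last clusters of lam-2, unc-64 and Y75B8A.8 ended 425, 673 and 222 bases before the annotated end, so unc-64 ended farther from it than pop-1. The only cluster of alh-7 (WBGene00000113), on chromosome II, minus strand, lay at 13487323 to 13487439 and ended 80 bases before the annotated end, nearer to it than any other of the 15.

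**Figure D1:**
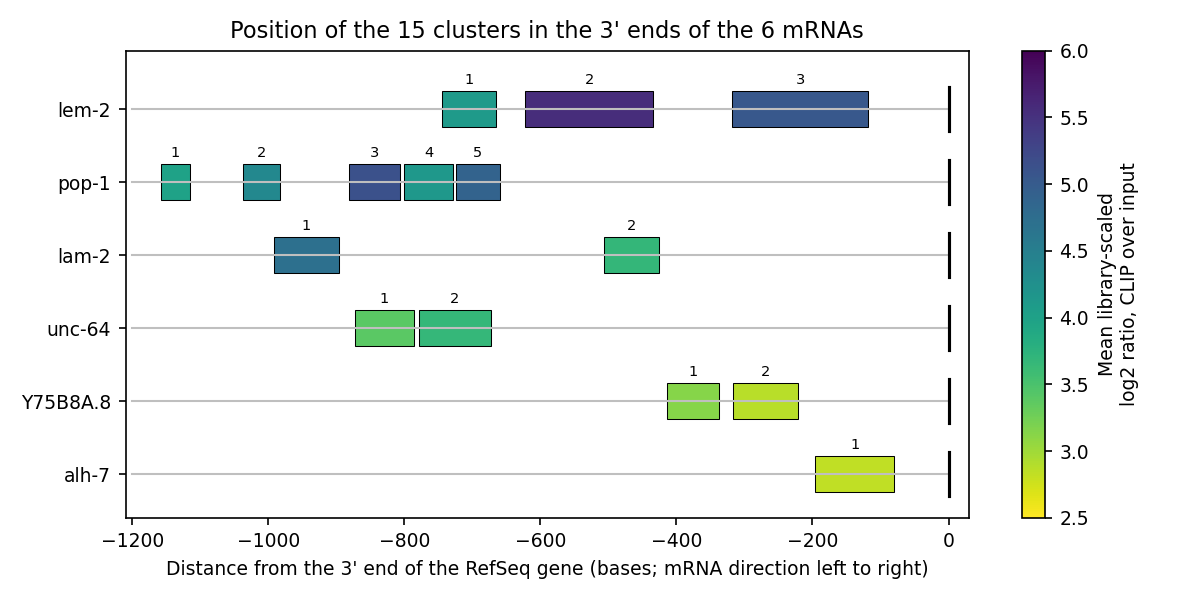
Positions of the 15 clusters as distance in bases from the 3' end of each RefSeq gene (black bar at 0), with mRNA direction from left to right. Boxes are clusters, numbered within each gene and coloured by the mean library-scaled log2 ratio of CLIP over input over 3 replicates. The last clusters of unc-64 and pop-1 end 673 and 660 bases before the annotated end, whereas the alh-7 cluster ends 80 bases before it.

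Clusters were 42 to 200 bases wide, with a median of 81.0, against 85.5 for the 416 3' UTR clusters of other genes. Neighbouring clusters of a gene were separated by 4 to 390 bases, with a median of 43.0 over 9 pairs, against 60.0 over the 199 neighbouring pairs of all genes. In 3 of the 9 pairs the gap was under 10 bases: clusters 3 and 4 and clusters 4 and 5 of pop-1, with 7 and 4 bases, and both clusters of unc-64. Reads between such close clusters were not examined, so whether the authors' division separates distinct sites is not known. Of the 6 genes, 5 had at least 2 clusters, as did 106 (45.7%) of 232 genes having any 3' UTR cluster, and pop-1 was 1 of 14 genes with 5 or more. No other RefSeq gene overlapped any of the 15 clusters. The table holds only uniquely annotated clusters, so an overlap may have barred entry, and this is not read as a trait of the 6 genes. The nearest gene downstream of pop-1, W03D8.3, lay 97 bases away and that of lam-2, alh-10, 205 bases away, whereas the other 4 genes had at least 1463 bases to the next gene.

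Reads were far more numerous over lem-2, which encodes a LEM-domain protein of the inner nuclear membrane, than over the other 5 mRNAs. Over its 3 clusters, CLIP libraries 1, 2 and 3 held 3068, 607 and 2221 reads, and the inputs held 37, 19 and 38. Among 232 genes in the 3' UTR class it ranked 1 in CLIP reads and 2 in input reads. lem-2 supplied 65.8%, 60.6% and 71.0% of the CLIP reads of the 15 clusters.

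Within lem-2, cluster 3 had CLIP counts of 1388, 306 and 1116 and input counts of 16, 7 and 21. It ranked 2 in CLIP reads and 1 in input reads among the 431 3' UTR clusters. Cluster 2 had CLIP counts of 1149, 184 and 716 and input counts of 13, 2 and 7. For cluster 1 they were 531, 117 and 389 against 8, 10 and 10. Replicate 2 was the lowest CLIP library at all 3 clusters, and every CLIP count exceeded every input count.

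Enrichment was expressed as a library-scaled log2 ratio, in which 1 read was added to each count before division and the library totals were corrected for. For lem-2 cluster 2 it was 5.89, 4.72 and 6.04 in replicates 1, 2 and 3, a mean of 5.55 ± 0.72 (SD, n = 3), the highest of the 15. Cluster 3 reached 5.05 ± 0.93 and cluster 1 reached 4.11 ± 1.69 (SD, n = 3). The wide spread of cluster 1 came with a replicate 2 value of 2.20, against 5.41 and 4.70 in the other replicates. In edgeR's quasi-likelihood test with Benjamini-Hochberg adjustment over all reproducible clusters tested, the log2 folds of clusters 1, 2 and 3 were 4.44 (SE 1.11), 5.94 (SE 1.20) and 5.37 (SE 1.17). Their adjusted p-values were 9.31e-05, 4.40e-06 and 1.02e-05.

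pop-1 encodes the TCF transcription factor that acts at the end of the Wnt pathway, where it specifies cell fates after asymmetric division. Its 5 clusters summed to 1048, 235 and 512 reads in CLIP and to 6, 8 and 8 in the inputs, which placed the gene at rank 18 of 232 in CLIP reads. Cluster 3, in the middle of the array, had the most, with CLIP counts of 340, 116 and 212 beside input counts of 2, 2 and 4. Cluster 5, at the 3' end of the array, had 262, 52 and 100 against 1, 2 and 1.

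The remaining clusters of pop-1 had fewer reads. Cluster 1 had 113, 17 and 66 CLIP reads, cluster 2 had 169, 23 and 74, and cluster 4 had 164, 27 and 60, with 1 or 2 input reads in each library. Library-scaled log2 ratios were 3.98 ± 1.79, 4.36 ± 1.82, 5.13 ± 1.15, 4.13 ± 1.97 and 4.90 ± 1.84 (SD, n = 3) for clusters 1 to 5. Replicate 2 was the lowest at all 5 clusters and widened each SD, so clusters were compared within replicates. Of the 10 pairs of clusters, 8 differed with 1 sign in 3 of 3 replicates. Cluster 5 exceeded cluster 4 by 0.67, 0.92 and 0.73 in replicates 1, 2 and 3 (0.77 ± 0.13), and exceeded cluster 1 by 1.21, 0.97 and 0.59 (0.92 ± 0.31; SD, n = 3). Signs were mixed for clusters 3 and 5 and for clusters 4 and 1. Clusters 4 and 5 had the same input counts (1, 2 and 1), as did clusters 1 and 2 (1 in each library). The differences within those pairs are therefore in CLIP counts alone. The 10 pairs also share 5 clusters and the same libraries. All pairs were compared after the values were seen, with the higher mean placed first, and were not tested. The pooled fold of cluster 2, over all replicates, was 55.7 with a 95% exact counting interval of 18.9 to 272, because it rested on 1 read in each input. With input counts of 1 taken as 0, the edgeR log2 folds of clusters 1 and 2 went from 5.21 and 5.64 to 8.74 and 9.18. edgeR log2 folds ran from 5.13 (SE 1.13, adjusted p = 1.35e-05) for cluster 4 to 5.84 (SE 1.21, adjusted p = 5.92e-06) for cluster 5.

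lam-2 encodes a laminin gamma chain, a subunit of the heterotrimer that builds basement membranes. Its upstream cluster 1 had CLIP counts of 141, 50 and 132 and input counts of 1, 1 and 2, a library-scaled log2 ratio of 4.72 ± 1.14 (SD, n = 3). Its downstream cluster 2 had 96, 19 and 56 against 2, 1 and 1, a ratio of 3.68 ± 1.37 (SD, n = 3). Cluster 1 exceeded cluster 2 in 3 of 3 replicates. edgeR gave log2 folds of 5.56 (SE 1.18, adjusted p = 7.17e-06) and 4.64 (SE 1.01, adjusted p = 1.10e-05).

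unc-64 encodes syntaxin, a SNARE protein of the plasma membrane that is needed for neurotransmitter release. Cluster 1 had 67, 19 and 45 CLIP reads and cluster 2 had 76, 21 and 64, each against 2, 1 and 1 input reads. Their library-scaled log2 ratios were 3.40 ± 1.13 and 3.67 ± 1.26 (SD, n = 3). The edgeR log2 folds of 4.26 (SE 0.91) and 4.56 (SE 0.99) had adjusted p-values of 7.63e-06 and 1.00e-05.

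Y75B8A.8, listed in the files as an uncharacterised protein, had 58, 19 and 19 CLIP reads in cluster 1 and 51, 15 and 16 in cluster 2. Each input library had 1 read in each cluster. Since 1 is the lowest deposited count and may stand for 0, the folds of both clusters rest on the input floor. In CLIP reads, replicate 3 was about as low as replicate 2 here, unlike in the other 5 genes, where it exceeded replicate 2 at every cluster. In the library-scaled log2 ratio replicate 3 exceeded replicate 2 here too, with 2.88 against 2.10 in cluster 1 and 2.64 against 1.78 in cluster 2. The library-scaled log2 ratios were 3.13 ± 1.17 and 2.88 ± 1.24 (SD, n = 3), and the pooled folds were 20.1 (95% exact counting interval 6.67 to 99.2) and 17.2 (5.67 to 85.0). edgeR gave log2 folds of 4.18 (SE 0.82, adjusted p = 3.65e-06) and 3.96 (SE 0.77, adjusted p = 3.58e-06), which went to 7.71 and 7.48 with input counts of 1 taken as 0.

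alh-7 encodes a protein with an aldehyde dehydrogenase domain. Its cluster held 58, 16 and 63 reads in CLIP and 3, 4 and 1 in the inputs, so input replicate 2 had the most input reads where CLIP replicate 2 had the fewest. The library-scaled log2 ratio was 3.41 in replicate 1, 0.54 in replicate 2 and 4.56 in replicate 3, a mean of 2.84 ± 2.07 (SD, n = 3), the lowest mean and the widest spread of the 15. The edgeR log2 fold was 3.27 (SE 0.87) with an adjusted p of 2.23e-04.

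**Figure D2:**
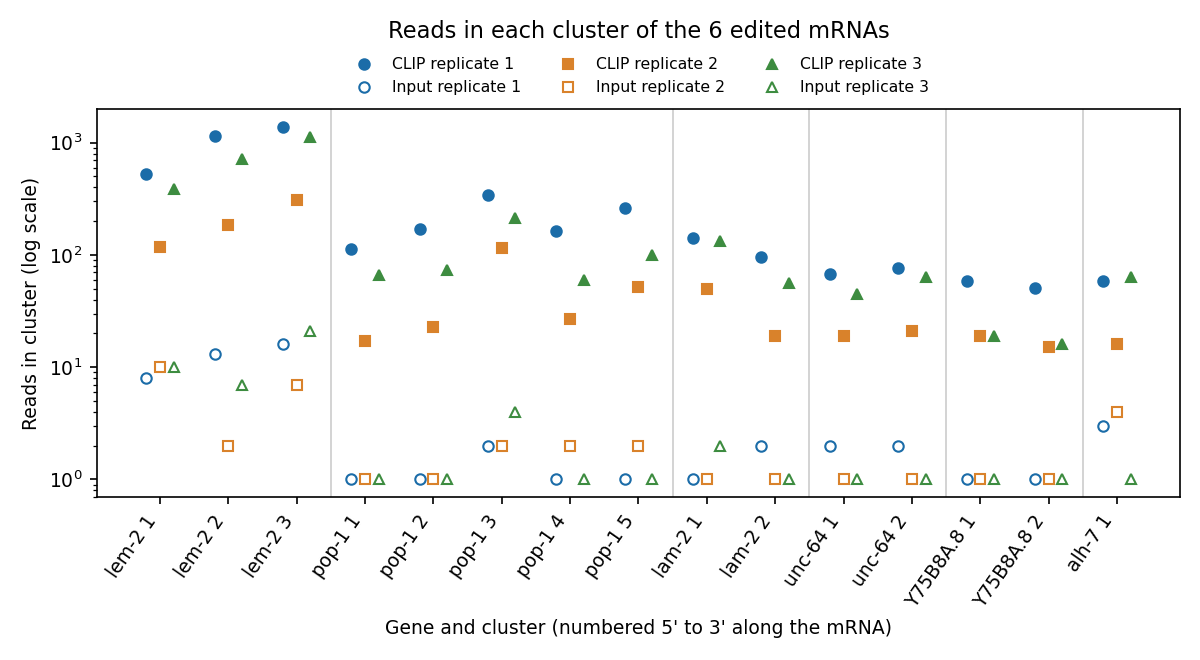
Reads in each of the 15 clusters on a log axis, by gene and cluster along the mRNA. Filled symbols are CLIP libraries and open symbols input libraries of replicates 1 to 3; no CLIP count was under 15 and no input count over 21, and the highest counts of both kinds belong to lem-2.

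Each of the 15 clusters passed edgeR's low-count filter and was called higher in CLIP than in input by edgeR at an adjusted p under 0.05. Of the 736 reproducible clusters, 463 passed the filter, and 97.2% of these were called higher. Enrichment was already a condition of entry to the table. The ratio was above 0 in 45 of 45 pairs of cluster and replicate. In reads per library total, every CLIP library exceeded every input library at 15 of 15 clusters, as it did at 87.9% of the 636 uniquely annotated clusters. Under TMM scaling, which places the median tested cluster near 0 (-0.15), 0 of the 15 were called higher and 0 lower, with 2 at an unadjusted p under 0.05, clusters 3 and 5 of pop-1, and their median log2 fold was 0.53. In that scaling the log2 fold was below 0 at lem-2 cluster 1, unc-64 cluster 1, both clusters of Y75B8A.8 and alh-7. DESeq2's Wald test with the recovered totals called 15 higher, beside 716 of all 736 reproducible clusters.

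The deposited p-value, computed by the authors in each replicate apart, was under 0.05 in all 3 replicates for 13 of the 15 clusters. The share was 46.1% of the 636 and 52.2% of the 416 3' UTR clusters of other genes. Such a p also depends on read numbers, and the median CLIP count in replicate 1 was 141 for the 15 against 81.0 for the 416. The table admitted clusters with such a p in 2 or 3 replicates, and the remaining 2 were at this edge. In the authors' deposited table, cluster 2 of Y75B8A.8 had p-values of 2.52e-11, 0.0518 and 0.00206 in replicates 1, 2 and 3. The alh-7 cluster had 8.57e-11, 0.465 and 3.08e-14 in the authors' deposited table. Just inside stood cluster 1 of pop-1, with 0.0203 in replicate 2 in that table.

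Replicate 2 gave the lowest ratio at 15 of the 15 clusters, as it did at 428 of the 431 3' UTR clusters. The median over the 15 was 5.41, 2.20 and 4.62 in replicates 1, 2 and 3, against 4.53, 1.78 and 3.80 for 3' UTR clusters of other genes. Without lem-2 the medians were 4.95, 2.10 and 4.57. As a median of replicate means, the 15 clusters stood at 4.11, and the 416 clusters of other genes at 3.38. The members' median was higher in 3 of 3 replicates, and no test was made because the members were chosen with earlier results of these data known. All 3 inputs had the lowest count of 1 at 4 of the 15 clusters and at 151 of the 416. At that floor the ratio follows the CLIP count, whose median in replicate 1 was 141 for the 15 and 81.0 for the 416. The higher median is therefore not read as stronger enrichment.

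**Figure D3:**
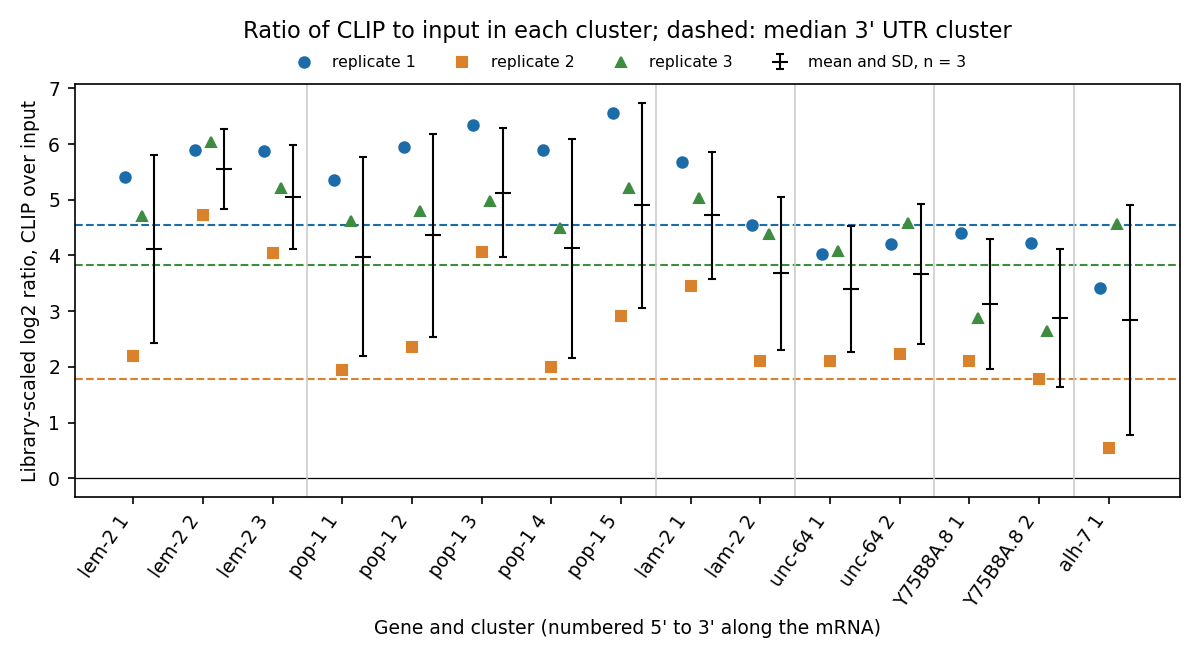
Library-scaled log2 ratio of CLIP over input in each cluster, by replicate, with the mean and SD over 3 replicates in black. Dashed lines give the median of all 431 3' UTR clusters in the replicate of the same colour; the lem-2 and pop-1 clusters lie above the line of their replicate, and alh-7 lies above it in replicate 3 only.

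Because the library totals cancel within a replicate, each ratio was also set against the median 3' UTR cluster of the same replicate. By this measure 9 of the 15 clusters lay above that median in 3 of 3 replicates, beside 37.1% of all 3' UTR clusters. The 9 were the 3 clusters of lem-2, the 5 of pop-1 and cluster 1 of lam-2. Clusters of the same gene share its mRNA and the libraries, so the 9 are not separate units and most came from lem-2 and pop-1. lem-2 cluster 2 was highest, at 1.35, 2.95 and 2.21 above the median on the log2 scale, a mean of 2.17 ± 0.80 (SD, n = 3). pop-1 cluster 3 followed at 1.75 ± 0.58, lem-2 cluster 3 at 1.66 ± 0.52 and pop-1 cluster 5 at 1.52 ± 0.46 (SD, n = 3).

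The unc-64 clusters lay close to the median, at 0.02 ± 0.46 and 0.29 ± 0.56 (SD, n = 3) relative to it. Cluster 2 of lam-2 stood at 0.29 ± 0.28. Cluster 2 of Y75B8A.8 was not above the median in any replicate, with a mean of -0.50 ± 0.61, and cluster 1 was above it in 1 replicate. alh-7 stood at -1.13 and -1.23 in replicates 1 and 2 and at 0.73 in replicate 3. At all 6 clusters the SD was close to or larger than the distance from the median.

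Ordered by the log2 ratio of summed reads, pop-1 came first at 5.21 ± 1.64, then lem-2 at 4.99 ± 1.13, lam-2 at 4.62 ± 1.13, unc-64 at 3.89 ± 1.18, Y75B8A.8 at 3.40 ± 1.22 and alh-7 at 2.84 ± 2.07 (SD, n = 3). Within replicates, pop-1 and lem-2 differed by 0.23 ± 0.59, less than the spread. lem-2 exceeded lam-2 by 0.36 ± 0.09 and lam-2 exceeded unc-64 by 0.73 ± 0.34 (SD, n = 3), both in 3 of 3 replicates. unc-64 and Y75B8A.8 differed by 0.50 ± 1.01, and Y75B8A.8 and alh-7 by 0.56 ± 1.73, each with the sign changing between replicates. pop-1 exceeded alh-7 by 2.37 ± 1.35, again in every replicate. The two-sided exact sign-flip test cannot give a p below 0.25 with 3 replicates. It gave 0.25 for these 3 differences of constant sign and 0.75 for the other 3, unadjusted over the 6 compared, so no place in this order passed the threshold. The genes were ordered by the same ratios, which favours a positive sign.

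The division of a gene's reads over its clusters does not depend on library totals, and it was compared between replicates. In lem-2, cluster 3 held 45.2%, 50.4% and 50.2% of the CLIP reads, cluster 2 held 37.5%, 30.3% and 32.2%, and cluster 1 held 17.3%, 19.3% and 17.5%. The order of the 3 clusters was the same in every CLIP library. In the inputs cluster 1 held 21.6%, 52.6% and 26.3%, above all its CLIP shares. Exact binomial 95% intervals of those input shares were wide, 9.83 to 38.2%, 28.9 to 75.6% and 13.4 to 43.1%, since they rest on 37, 19 and 38 reads.

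In pop-1, cluster 3 held 32.4% of the CLIP reads in replicate 1 (95% exact binomial interval 29.6 to 35.4), 49.4% in replicate 2 (42.8 to 55.9) and 41.4% in replicate 3 (37.1 to 45.8). These intervals, which cover counting error only, did not overlap between replicate 1 and the others, so the profile along the array differed between libraries beyond counting error. Cluster 3 had the largest share and cluster 1 the smallest or next to smallest in each of the 3. In lam-2, cluster 1 held 59.5%, 72.5% and 70.2% of CLIP reads. In unc-64, cluster 2 held 53.1%, 52.5% and 58.7%, close to its 54.9% of the width covered by both clusters. In Y75B8A.8, cluster 1 held 53.2%, 55.9% and 54.3%, with 44.8% of the width.

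**Figure D4:**
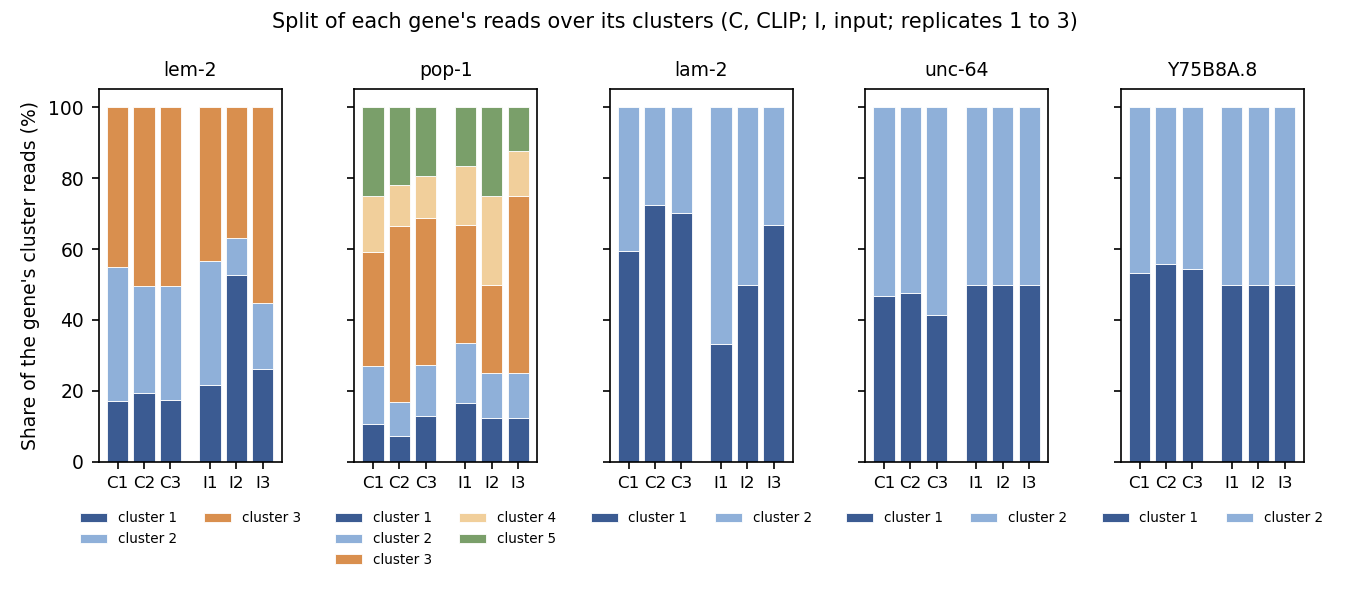
Share of each gene's cluster reads, in percent, that fell in each of its clusters, for CLIP (C1 to C3) and input (I1 to I3) libraries of replicates 1 to 3. lem-2 cluster 3 holds 45.2% to 50.4% of the CLIP reads; input bars outside lem-2 rest on 2 to 8 reads each.

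Per length, lem-2 cluster 3 was also the densest, with 1405 CLIP reads per 100 bases over all replicates, then cluster 1 with 1313 and cluster 2 with 1084. pop-1 cluster 3 had 891 reads per 100 bases. The remaining pop-1 clusters had 349 to 647 and lam-2 had 336 and 211. Y75B8A.8 cluster 2 was the sparsest with 86.3, and the median 3' UTR cluster of other genes had 184. Density and ratio gave different orders, for lem-2 cluster 1 was the second densest of the 15 and ranked 132 of 431 by ratio.

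Between the cluster with the largest deposited fold and the next one in the same gene, the log2 ratio differed by 0.50 ± 0.44 in lem-2 (cluster 2 over 3) and 1.04 ± 0.37 in lam-2 (cluster 1 over 2). The differences were 0.27 ± 0.20 in unc-64 (cluster 2 over 1) and 0.25 ± 0.07 in Y75B8A.8 (cluster 1 over 2; SD, n = 3). All 4 were positive in 3 of 3 replicates. In unc-64 and in Y75B8A.8 both clusters of the gene had the same input counts, so the difference is in CLIP reads alone. The first cluster of each pair was picked for its fold in these same reads, which largely sets that sign, so the agreement and the two-sided exact sign-flip p of 0.25, the smallest possible, support no difference between the clusters. In pop-1, cluster 3 and cluster 5 differed by 0.23 ± 0.79 (SD, n = 3), with cluster 3 higher in 1 of 3 replicates and an exact p of 1.00. In the authors' deposited table, whose scaled log2 ratio adds no read, the order was the opposite, with 5.62 ± 1.19 for cluster 3 and 5.75 ± 2.08 for cluster 5.

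Other genes of the same pathways and other ADAR substrates were looked up in the 636 clusters. Of 5 further known substrates, 2 had clusters. C35E7.6 had 7 clusters with mean ratios from 2.72 to 4.71, and the non-coding hairpin RNA rncs-1 had 3 with 3.28 to 3.95. lam-1, which encodes the laminin beta chain, was the only 1 of 16 basement membrane genes with a cluster. Its cluster, in the 3' UTR on chromosome IV at 5183309 to 5183394, had CLIP counts of 128, 32 and 114 and input counts of 2, 1 and 1, a ratio of 4.39 ± 1.38 (SD, n = 3), between those of the lam-2 clusters.

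Among 23 genes of Wnt and beta-catenin signalling, mom-5, a Frizzled receptor gene, had 1 cluster, with CLIP counts of 19, 7 and 13, 1 read in each input and a ratio of 2.00 ± 1.08 (SD, n = 3). Of 18 genes of ADAR and double-stranded RNA machinery, adr-1 itself had 1 cluster in an exon, with 15, 13 and 19 CLIP reads and a ratio of 1.94 ± 0.35 (SD, n = 3). Clusters named 0 of 10 nuclear envelope genes, 0 of 21 genes of SNARE and synaptic vesicle release and 0 of 12 other aldehyde dehydrogenase genes. None of these without a cluster among the 636 was named by a reproducible cluster outside them. These counts were not tested. The 636 clusters carried 363 gene identifiers, and the share of all RefSeq genes with a cluster was not computed. No count is therefore read as particular to its list.

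For each of the 6 genes, the gene with the most similar ratios was taken as that whose cluster of largest deposited fold lay nearest in Euclidean distance over the 3 library-scaled log2 ratios, among 309 other named genes. lam-2 was nearest to K02F3.2, at a distance of 0.17, with 5.82, 3.36 and 5.00 beside its own 5.68, 3.45 and 5.03. Y75B8A.8 was nearest to larp-1, a La-related RNA-binding protein gene, at 0.25, and unc-64 to Y105E8A.1 at 0.32. pop-1 was nearest to gmn-1, which encodes geminin, at 0.48, and alh-7 to Y65B4A.8 at 0.49. lem-2 had no gene closer than 0.78, which was wve-1, an actin regulator gene, with 6.51, 4.28 and 6.20 beside 5.89, 4.72 and 6.04. All 6 neighbours had this cluster in a 3' UTR, the class of 431 of the 636 clusters.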

How the data were processed

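The submitters' processing notes name fastp 0.21.0, STAR 2.7.10b and the builds ce11 and WBcel235. Per the file captions, CLIPPER called the clusters. The deposited read counts are raw, 1 value for each cluster in each library, with a lowest value of 1, so that 0 may be written as 1. Their deposited p-values come from a chi-square or Fisher test, and 1 deposited log2 column is the unscaled log2 fold of reads plus 1, in 736 of 736 clusters per replicate. A further deposited log2 column equals the ratio scaled for library totals, and the deposited score is the Yates-corrected chi-square statistic. No source used here says whether coordinates count from 0 or 1, so distances carry an error of 1 base.

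Library totals were recovered by fitting 130, 76 and 116 deposited scores, of which 130, 73 and 116 were met within rounding, with standard errors of 0.0319%, 0.989% and 0.0821% for CLIP. edgeR 4.0.16 (glmQLFit, glmQLFTest, filterByExpr, Benjamini-Hochberg adjustment over all clusters tested, threshold 0.05) used these totals without TMM in R 4.3.3, on all 736 reproducible clusters; the procedures were tested on simulated data. SE is the log2 fold over the square root of the test statistic. Ranks and shares were computed in Python 3.11. By the labels' protocols an input and its CLIP library share a lysate, and the deviations of such pairs from their group means correlated at 0.332, 0.113 and 0.00162.

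All 15 clusters of the 6 genes were described; other genes named are those with a cluster in the 7 gene lists and the nearest gene by ratio. Members and lists were chosen with earlier results of these data known. Alternatives covered scaling, filter, replicate block, libraries left out, input counts of 1 taken as 0, the clusters fitted, DESeq2 1.42.0 and the reads added. No genome sequence was used here.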

Additional observations from a re-analysis of the deposited data

How the results depend on the processing

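The 15 clusters kept their direction and their edgeR or DESeq2 call without the filter, with the replicate block, without each library in turn, with input counts of 1 taken as 0, in a fit on the 636 uniquely annotated clusters and in DESeq2's Wald test. The highest adjusted p over these was 0.0351, for alh-7 without input replicate 3. Most other clusters were called higher too, 715 of 736 without the filter and 716 of 736 in DESeq2's Wald test. The median log2 fold of the members, 5.13, was 4.95 with the replicate block, which changed no call of the 15, and 4.22 to 5.57 with a library left out. It rose to 5.94 where input counts of 1 were set to 0. That setting moved the 4 clusters with 1 read in every input most, pop-1 clusters 1 and 2 from 5.21 and 5.64 to 8.74 and 9.18 and Y75B8A.8 clusters 1 and 2 from 4.18 and 3.96 to 7.71 and 7.48. These values depend on the fit's prior count and are no bounds.

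Scaling to the clusters themselves ended all 15 calls. TMM gave a median of 0.53 with 0 clusters called higher, and DESeq2's size factors in edgeR gave 0.45 with 0 (2 at an unadjusted p under 0.05 in each); the median of all tested clusters went from 4.44 to -0.15 and -0.23. Both center enriched clusters on 0 by construction, so values are relative to the median cluster. Under TMM, lem-2 cluster 1 turned to -0.14, unc-64 cluster 1 to -0.24, Y75B8A.8 clusters 1 and 2 to -0.28 and -0.54, and alh-7 to -1.17. Under DESeq2's size factors these were -0.20, -0.32, -0.37, -0.62 and -1.24, and cluster 2 of lam-2 and of unc-64 turned to -0.02 and -0.01. Of all clusters tested, TMM called 38 higher and 72 lower, against 450 and 0, and leaving out a library gave 393 to 679 higher of 426 to 731 tested, the most without CLIP replicate 2.

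The median ratio of the 15 clusters, 4.11, was 3.41 without replicate 1, 5.06 without replicate 2 and 3.81 without replicate 3. It was 3.14 with 1 CPM added after scaling, 4.94 with no read added (chosen after seeing the data), and 0.72 relative to the median 3' UTR cluster (also chosen after). The median share of the largest cluster, 54.5%, was 52.8% to 55.1% with a replicate left out. pop-1 cluster 3 minus cluster 5 turned to -0.23 without replicate 2; the range was -0.23 to 0.47. Median spacing was 61.0 bases among clusters with a deposited p under 0.05 in all replicates. Input counts of 1 to 4 limit the precision of most ratios.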
